A study of Mus musculus with 15 samples.

Results

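The genes described here code for the connective tissue matrix, the smooth muscle proteins and the vessel proteins that surround the intestinal crypt, and their RNA was measured in crypts isolated from the mouse small intestine. They were taken from a list of 48 gene symbols, each represented by the array probe with the highest mean red signal over 15 arrays. Of the 48, 47 had a probe among the 20144 genes named on the array, and 43 were bright enough to be compared. No probe was matched to Col6a3, and Col5a2, Fbn1, Lmod1 and Igfbp7 were too dim. The mice were 6 to 8 weeks old and fell into 3 groups of 5 arrays, and all crypts were taken 24 h after treatment. Controls had received a control IgG antibody. The N1N2 group had received antibodies that block Notch1 and Notch2, 2 receptors of the Notch pathway, with a dose labelled 1 mg/mL, which is a concentration and not an amount per animal. The N1N2 plus Lrp6 group had received these and, at 30 mg/kg, also an antibody to Lrp6, a cell-surface co-receptor of the Wnt pathway. The series design calls the arrays of a group biological replicates, and whether 1 array holds 1 animal or a pool is unknown here, so p-values measure the spread between arrays.

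Beneath the crypt epithelium lies a thin basement membrane of laminins, type IV collagen and nidogens, and beyond it a lamina propria whose fibroblasts secrete fibrillar collagens, proteoglycans and Wnt and BMP signals. Smooth muscle runs through the muscle layers and up into the villi, contractile myofibroblasts lie close to the crypt, and a dense capillary bed supplies it. Chelation and shaking free the epithelium from this stroma, so a crypt preparation is mostly epithelial and can hold some stromal RNA.

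Every array set crypt RNA (red) against a common mouse reference RNA (green), and each value below is a log2 ratio of crypt over reference for 1 probe, so that values of different genes are not levels that can be set against each other. As a check of the tissue label, all 12 epithelial markers listed, Epcam, Cdh1 and Vil1 among them, were tested, and their mean log2 ratio was between 5.10 and 5.86 on the 15 arrays. Of the 43 stromal genes, 35 lay below the reference in the controls, with a median log2 ratio of -2.56, against 42.9% of all 23938 features tested. By class these were 17 of 18 matrix, 4 of 4 mesenchymal, 9 of 10 basement membrane and 4 of 7 muscle genes. Only 1 of 4 endothelial genes lay below it, and their median was 0.20. The red signal was well above background for 75.8% ± 4.19 of spots in controls, 73.9% ± 3.05 in N1N2 and 64.8% ± 6.01 in N1N2 plus Lrp6 (SD, n = 5 arrays each), with the lowest share, 57.2%, on N1N2 plus Lrp6 array 1. The arrays lay on 6 slides. Slide 2 held controls 4 and 5 with N1N2 arrays 1 and 2, so the first comparison could also be made within a slide. No slide held an N1N2 plus Lrp6 array together with an array of another group, so for that group slide and treatment cannot be told apart.

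The stromal genes that passed the test were lower. In limma 0 of the 43 rose at an adjusted p under 0.05 in any of the 3 comparisons, where 6.57%, 9.45% and 0.221% of all features rose. At an unadjusted p under 0.05 in limma, 1, 1 and 0 of the 43 lay higher. The share of all features at the unadjusted cut is not given, here or below, so counts at that cut have no baseline. Pecam1, of endothelial cells, was called higher in N1N2 against control (0.22 to 0.28, adjusted p 0.03 to 0.047) under 6 of the alternative settings, flagged spots kept and slide as a random block among them. A gene was called changed at an adjusted p under 0.05 in a limma fit of all 15 arrays, with Benjamini-Hochberg adjustment over the 23938 features tested. In N1N2 against control, 5 of the 43 (11.6%) fell, where 5.15% of all features fell: Dcn, Lum, Col14a1, Fstl1 and Nid2. In N1N2 plus Lrp6 against N1N2, 10 (23.3%) fell, against 7.26% of all features: Col1a1, Col1a2, Col6a1, Fn1, Sparc, Lamc1, Acta2, Actg2, Myh11 and Pecam1. In N1N2 plus Lrp6 against control, 5 (11.6%) fell, against 0.155% of all features: Col1a1, Col3a1, Fstl1, Nid2 and Actg2. In these bulk samples fewer stromal cells and less RNA per stromal cell cannot be told apart.

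**Figure D1:**
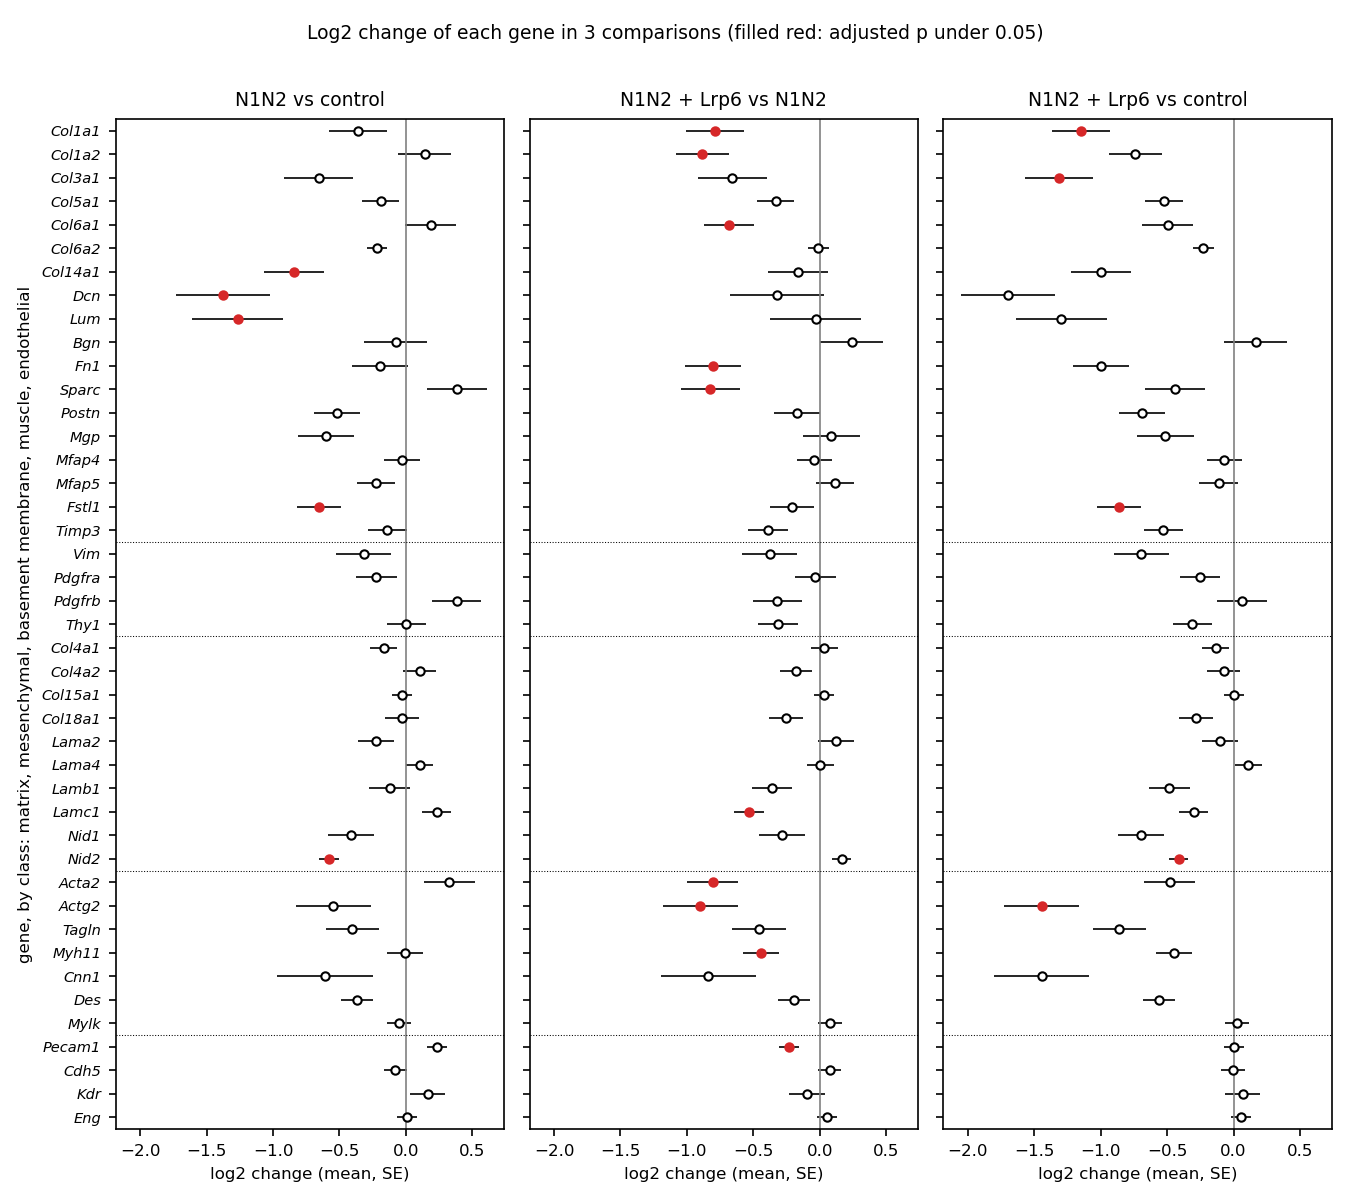
Each point is the log2 change of 1 gene (x axis, group mean difference, bar SE) in 1 of the 3 comparisons, with genes on the y axis grouped by class and red points past an adjusted p of 0.05. Red points lie left of 0 in each panel, 5, 10 and 5 of them, but with arrays scaled to each other no gene passed, and Fstl1 in the first comparison and Col1a1, Fstl1 and Nid2 in the third lay to the right of 0.

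The median change of the 43 genes was -0.17 in N1N2 against control and -0.23 in N1N2 plus Lrp6 against N1N2. In N1N2 plus Lrp6 against control it was -0.45. The medians over all features were 0.00, 0.00 and 0.01. With the arrays scaled to each other, the medians of the 43 turned to 0.25 in N1N2 and 0.14 in N1N2 plus Lrp6 against control. This scaling divided each array by its own median log2 ratio, a value near 0, and not by its spread. In the authors' deposited values the array medians were 0.014 to 0.029. Below 0 lay 31, 32 and 35 of the 43 genes in turn, where 49.6%, 50.2% and 46.1% of all features did. The groups did not overlap, the treated arrays all lying below the others, for 2 genes in the first comparison (5.84% of all features), 8 in the second (3.96%) and 10 in the third (1.05%). The N1N2 arrays enter the first and the second comparison, and the controls enter the first and the last, so their values are given side by side and are not independent of each other.

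The class means on each array showed where these differences lay. The 18 matrix genes had a mean log2 ratio of -3.20 ± 0.31 in controls, -3.56 ± 0.13 in N1N2 and -3.89 ± 0.32 in N1N2 plus Lrp6 (SD, n = 5 arrays), but with the arrays scaled the N1N2 arrays were 0.36 above the controls. The 7 muscle genes stood at -0.97 ± 0.27, -1.21 ± 0.05 and -1.72 ± 0.42 in the same order. The 4 endothelial genes stood at -0.19 ± 0.10, -0.11 ± 0.04 and -0.16 ± 0.10. The array means of N1N2 overlapped those of the controls in all 3 of these classes. Those of N1N2 plus Lrp6 overlapped N1N2 for matrix and endothelial genes but not for muscle genes. N1N2 plus Lrp6 array 1 was the lowest of the 15 arrays for 30 of the 43 genes, 16 of 18 matrix genes, 6 of 7 muscle genes and 0 of 4 endothelial genes among them. Its endothelial mean, -0.30, was also the lowest of the 15, and its vessel and lymphatic list stood at -0.48, against -0.29 to -0.19 on the other 14. The same array was lowest for the epithelial list (5.10, against 5.34 to 5.86), the nerve and glia list (-0.58, against -0.47 to 0.26) and the fibroblast list (-0.11, against 0.27 to 0.79). Without it the N1N2 plus Lrp6 mean was -3.75 ± 0.10 for matrix and -1.53 ± 0.07 for muscle, which is 0.19 and 0.32 below N1N2 where it had been 0.33 and 0.51 below.

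**Figure D2:**
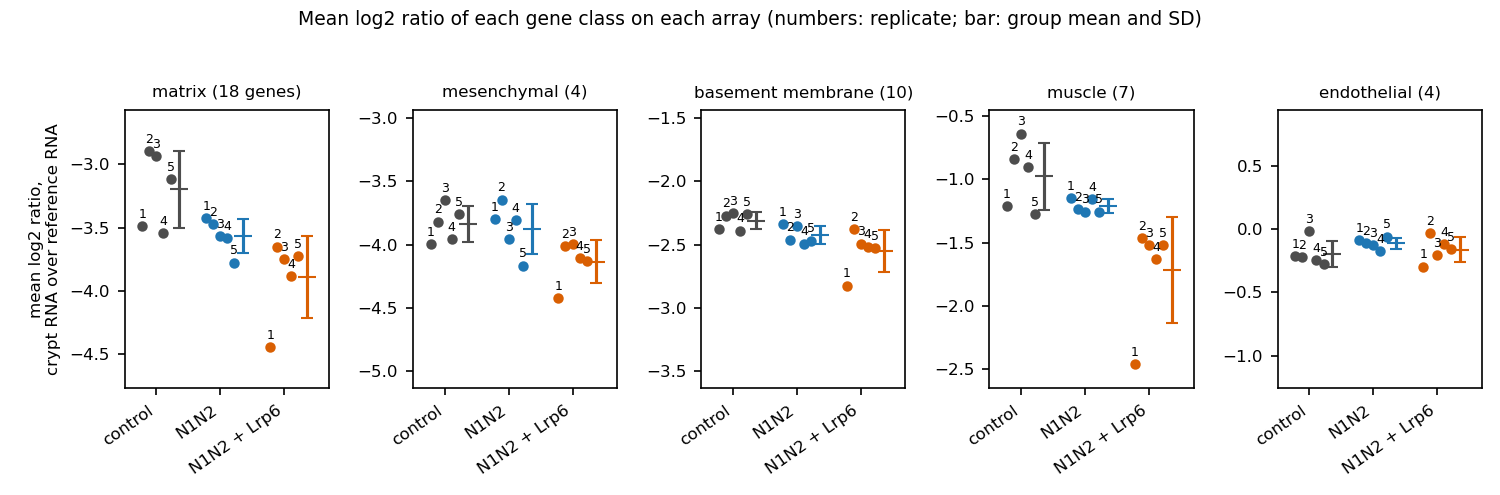
The mean log2 ratio of each gene class (y axis, crypt over reference RNA, the same span in each panel) is plotted for every array, with the replicate number above each point and the group mean and SD beside it. Muscle and matrix means are lower in the N1N2 plus Lrp6 group, most of all on its array 1, endothelial means lie between -0.30 and -0.01 on all arrays, and with the arrays scaled to each other the matrix, mesenchymal and basement membrane means of N1N2 turned above those of the controls.

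In N1N2 against control the genes that fell were led by a small group of fibroblast matrix genes. Dcn codes for decorin, a small leucine-rich proteoglycan that binds collagen fibrils. Its log2 ratios were -3.06, -1.06, -1.56, -3.05 and -1.54 on control arrays 1 to 5, -3.10, -3.00, -3.50, -3.60 and -3.95 on the N1N2 arrays and -4.19, -3.99, -3.20, -3.58 and -3.81 on the N1N2 plus Lrp6 arrays. Controls 2, 3 and 5 stood far above all other arrays, while controls 1 and 4 lay within the N1N2 range. Dcn fell 2.60-fold in N1N2 against control (log2 change -1.38, SE 0.35, adjusted p = 0.02) and was -1.70 in N1N2 plus Lrp6 against control, where the groups did not overlap but the adjusted p was 0.052.

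Lumican, the product of Lum, is a related proteoglycan of collagen fibrils. Lum stood at -1.17, 0.93, 0.26, -0.84 and 0.78 in controls, -1.06, -0.97, -1.17, -1.74 and -1.44 in N1N2 and -1.67, -1.61, -1.03, -1.02 and -1.19 in N1N2 plus Lrp6. The same 3 controls were high, and control 1 lay within the N1N2 range with control 4 just above it. Lum fell 2.41-fold in N1N2 (log2 change -1.27, SE 0.34, adjusted p = 0.026). Col14a1, a fibril-associated collagen that decorates the surface of collagen fibrils, read 0.38, 1.63, 1.13, 0.82 and 1.72 in controls, 0.24, 0.58, 0.23, 0.32 and 0.12 in N1N2 and -0.27, -0.18, 0.54, 0.37 and 0.22 in N1N2 plus Lrp6. It was highest in controls 2 and 5, and it fell 1.79-fold in N1N2 (log2 change -0.84, SE 0.23, adjusted p = 0.026), while a dimmer probe of the gene changed by -0.14. None of the 3 passed in N1N2 plus Lrp6 against N1N2, with changes of -0.32 for Dcn, -0.03 for Lum and -0.16 for Col14a1.

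Fstl1 codes for a secreted glycoprotein of mesenchymal cells related to follistatin. It gave -5.65, -5.24, -5.49, -5.77 and -5.39 in controls, -6.15, -6.17, -5.97, -6.12 and -6.41 in N1N2 and -7.09, -6.21, -6.10, -6.12 and -6.32 in N1N2 plus Lrp6. Every control lay above every treated array. Its log2 change was -0.66 (SE 0.16, adjusted p = 0.019) in N1N2 against control and -0.86 (SE 0.16, adjusted p = 0.037) in N1N2 plus Lrp6 against control, but 0.56 and 0.29 with the arrays scaled to each other.

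Within slide 2, between 2 arrays of each group, Dcn differed by -0.75, Lum by -0.98, Col14a1 by -0.86 and Fstl1 by -0.58, and with slide as a block in the fit their adjusted p was 0.61, 0.52, 0.41 and 0.45. All 4 calls were lost without control 2 (adjusted p 0.058 to 0.076) and without control 5 (0.053 to 0.078), Dcn also without N1N2 array 4 (0.053), and Lum and Col14a1 also without N1N2 array 4 (0.075 and 0.056) or 5 (0.053 and 0.055).

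**Figure D3:**
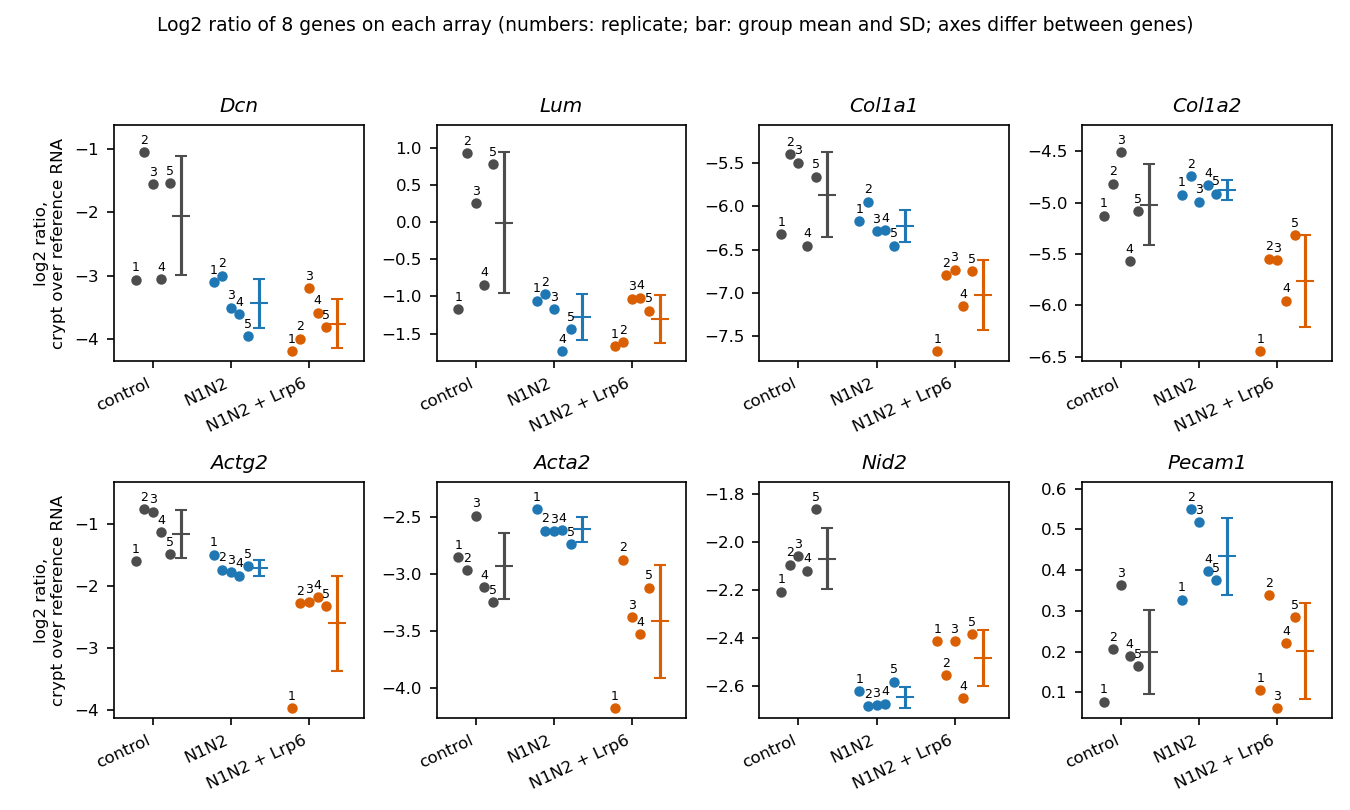
The log2 ratio of 8 genes (y axis, crypt over reference RNA, a scale of its own for each gene) is plotted for every array with its replicate number, and bars give the group mean and SD. The genes were picked for plotting after their values were seen. Controls 2, 3 and 5 stand apart for Dcn and Lum, Col1a2 and Acta2 are lowest on average in the N1N2 plus Lrp6 arrays, Nid2 is higher in controls than on any treated array, and Pecam1 spans less than the others. With the arrays scaled to each other, Col1a1 and Nid2 in N1N2 plus Lrp6 turned to 0.12 and 0.02 above control.

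Of the fibrillar collagen genes, Col1a1, Col1a2 and Col3a1 passed the test in at least 1 comparison, and Col5a1 passed in none. Type I collagen, the main tensile fibre of connective tissue, is built from the products of Col1a1 and Col1a2. Col1a1 read -6.32, -5.40, -5.50, -6.46 and -5.66 in controls, -6.18, -5.95, -6.29, -6.28 and -6.46 in N1N2 and -7.67, -6.80, -6.73, -7.16 and -6.75 in N1N2 plus Lrp6. All N1N2 plus Lrp6 arrays lay below all other arrays. Col1a1 fell 1.73-fold in N1N2 plus Lrp6 against N1N2 (log2 change -0.79, SE 0.22, adjusted p = 0.021) and 2.22-fold against control (log2 change -1.15, SE 0.22, adjusted p = 0.036), the latter 0.12 with the arrays scaled to each other, and was -0.36 in N1N2 against control (adjusted p = 0.32).

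Col1a2 read -5.13, -4.82, -4.51, -5.57 and -5.09 in controls, -4.92, -4.74, -4.99, -4.83 and -4.91 in N1N2 and -6.45, -5.54, -5.56, -5.95 and -5.32 in N1N2 plus Lrp6. The N1N2 arrays lay within the control range, and only the lowest control reached the N1N2 plus Lrp6 range. Col1a2 fell 1.85-fold in N1N2 plus Lrp6 against N1N2 (log2 change -0.88, SE 0.20, adjusted p = 0.0079). Its 2 other changes, 0.14 in N1N2 against control and -0.74 in N1N2 plus Lrp6 against control, did not pass (adjusted p = 0.71 and 0.14).

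The stretch of 250 bases before the annotated start of Col1a2 is shown because this gene gave the lowest adjusted p of the matrix genes in that comparison. It lies at chr6:4505368-4505617 (GRCm38.p6, plus strand, from RefSeq), and the capitals mark a CCAAT box and a pair of GGGCGG boxes, searched on both strands.
Col1a2: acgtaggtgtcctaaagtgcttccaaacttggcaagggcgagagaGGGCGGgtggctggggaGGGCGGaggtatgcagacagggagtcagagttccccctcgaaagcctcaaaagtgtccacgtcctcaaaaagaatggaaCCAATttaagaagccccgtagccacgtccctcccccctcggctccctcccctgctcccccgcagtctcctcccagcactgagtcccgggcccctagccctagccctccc
The CCAAT letters lie 109 to 105 bases before the start and the GGGCGG letters 205 to 200 and 188 to 183 bases before it. CCAAT was in 10 of 32 upstream windows of the listed genes and in 33.8% of 32851 windows of all genes, and GGGCGG in 16 of 32 and in 32.7%. A promoter was held by the RefSeq table for 29 of the 48 genes, and a match of letters does not show that a factor binds there.

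Type III collagen, the product of Col3a1, forms the fine reticular fibres of gut and vessel walls. Col3a1 read -4.61, -3.28, -3.66, -4.35 and -3.50 in controls, -4.45, -4.23, -4.61, -4.54 and -4.86 in N1N2 and -6.00, -5.23, -4.74, -5.11 and -4.88 in N1N2 plus Lrp6. It was highest in controls 2, 3 and 5, as Dcn and Lum were. Col3a1 fell 2.49-fold in N1N2 plus Lrp6 against control (log2 change -1.31, SE 0.26, adjusted p = 0.043), with -0.66 (adjusted p = 0.11) and -0.66 (adjusted p = 0.098) in the 2 steps between. Col6a1, a chain of the beaded-filament collagen that links fibrils to cells, read -3.15, -2.91, -2.75, -3.56 and -3.31 in controls, -2.82, -2.89, -2.92, -2.99 and -3.12 in N1N2 and -4.37, -3.17, -3.63, -3.67 and -3.32 in N1N2 plus Lrp6. The 5 N1N2 arrays lay above the 5 N1N2 plus Lrp6 arrays, and Col6a1 fell 1.60-fold between them (log2 change -0.68, SE 0.19, adjusted p = 0.023).

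Fibronectin, coded by Fn1, is a matrix glycoprotein to which cells attach through integrins. Fn1 read -7.91, -7.64, -7.65, -8.07 and -7.98 in controls, -8.35, -7.51, -8.10, -7.81 and -8.45 in N1N2 and -9.50, -8.80, -8.73, -8.99 and -8.22 in N1N2 plus Lrp6. It fell 1.75-fold in N1N2 plus Lrp6 against N1N2 (log2 change -0.80, SE 0.21, adjusted p = 0.017), with 1 N1N2 plus Lrp6 array within the N1N2 range. Sparc codes for osteonectin, a matricellular protein that binds collagen. Sparc read -3.50, -3.26, -3.13, -3.61 and -3.32 in controls, -2.58, -3.03, -2.90, -2.96 and -3.43 in N1N2 and -4.58, -3.05, -3.73, -4.10 and -3.55 in N1N2 plus Lrp6. It fell 1.77-fold in the same comparison (log2 change -0.82, SE 0.22, adjusted p = 0.02). A dimmer Sparc probe also read lower there (-0.53), but in N1N2 against control the probes disagreed, at 0.38 and -0.48.

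For these genes too the calls depended on single arrays. Against N1N2, the call of Col1a1 in N1N2 plus Lrp6 was lost without N1N2 array 2 (adjusted p 0.058) and N1N2 plus Lrp6 arrays 1 (0.051) or 4 (0.053), Col6a1 without N1N2 array 2 (0.053) or N1N2 plus Lrp6 array 4 (0.052), and Sparc without N1N2 plus Lrp6 array 4 (0.056), while Col1a2 and Fn1 passed whichever array was left out (highest adjusted p 0.024 and 0.049). With median centring neither passed (adjusted p 0.082 and 0.14), nor did Col1a1 (0.13), Col6a1 (0.065) or Sparc (0.13). In N1N2 plus Lrp6 against control, leaving out 1 array ended the call of Col1a1 in 9 of 15 cases and that of Col3a1 in 11 of 15, with adjusted p up to 0.11 and 0.13.

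The 8 other matrix genes tested passed in no comparison. They include Col5a1, which nucleates fibrils, Col6a2, the proteoglycan Bgn, Postn, the calcification inhibitor Mgp, the microfibril genes Mfap4 and Mfap5, and Timp3, an inhibitor of matrix metalloproteinases. In N1N2 against control their changes ran from -0.60 for Mgp to -0.03 for Mfap4. With the Lrp6 antibody added they ran from -0.39 for Timp3 to 0.24 for Bgn, against N1N2. Bgn read -1.34 on N1N2 plus Lrp6 array 2 and between -3.02 and -2.51 on the other arrays of that group. At an unadjusted p under 0.05 in limma 3, 2 and 5 of these genes lay lower in the 3 comparisons, with no share of all features to set beside them.

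Among the mesenchymal cell markers 0 of the 4 passed in limma in any comparison, with 0, 0 and 1 at an unadjusted p under 0.05. The matrix-producing cells of the gut are marked by Pdgfra and Pdgfrb, receptors for platelet-derived growth factors found on fibroblasts and pericytes in turn, by Thy1, a surface protein of fibroblasts and lymphocytes, and by Vim, an intermediate filament protein. Changes ran from -0.32 (Vim) to 0.38 (Pdgfrb) in N1N2 against control, from -0.38 (Vim) to -0.31 (Thy1) in N1N2 plus Lrp6 against N1N2 with Pdgfra left out, and from -0.69 (Vim) to 0.06 (Pdgfrb) in N1N2 plus Lrp6 against control. Pdgfra was well above background on 4 control arrays, 1 N1N2 array and 0 N1N2 plus Lrp6 arrays, so the text quotes no change for it in the last group. Its values are still plotted in the figures and enter the medians, the class means and the counts of genes below 0.

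**Figure D4:**
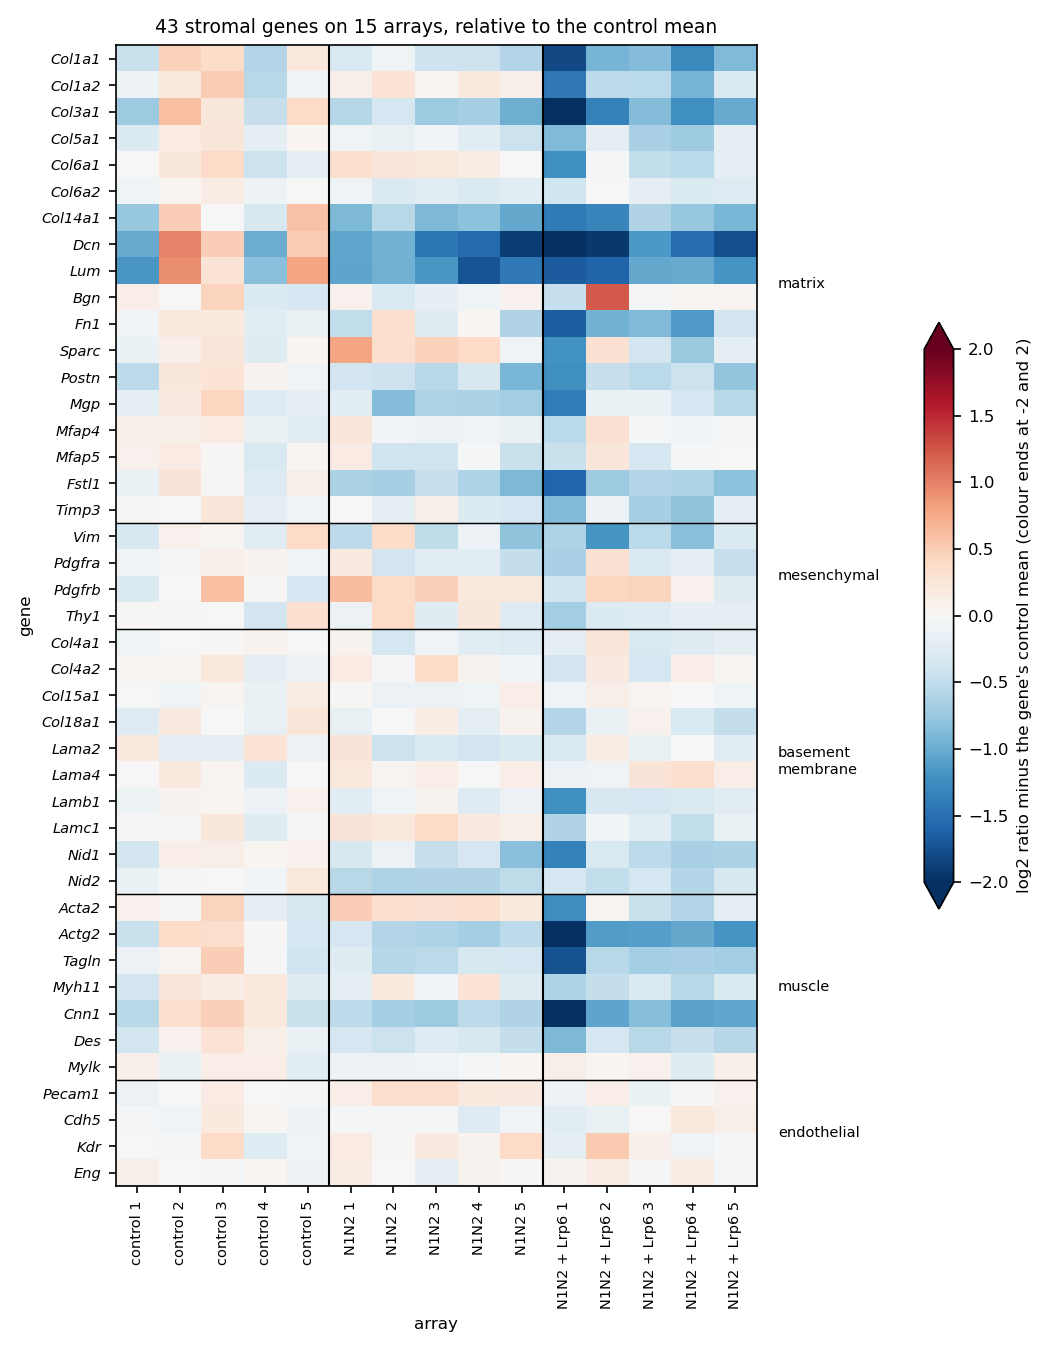
Each cell is the log2 ratio of 1 gene (y axis, by class) on 1 array (x axis) minus that gene's control mean, with blue lower and red higher and the colour ending at -2 and 2. N1N2 plus Lrp6 array 1 is the lowest column for 30 of 43 genes, Dcn and Lum split the controls, and the endothelial rows stay pale. With the arrays scaled to each other the median change turned to 0.25 in N1N2 against control and 0.14 in N1N2 plus Lrp6 against control.

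In the basement membrane Nid2 stood out. Nidogens link the laminin and type IV collagen networks, and Nid2 codes for nidogen-2. Nid2 read -2.21, -2.09, -2.06, -2.12 and -1.86 in controls, -2.62, -2.68, -2.68, -2.67 and -2.58 in N1N2 and -2.41, -2.55, -2.41, -2.65 and -2.38 in N1N2 plus Lrp6. Every control lay above every treated array, with a spread of ± 0.13 (SD, n = 5) in controls and ± 0.04 in N1N2. Nid2 fell 1.49-fold in N1N2 (log2 change -0.58, SE 0.07, adjusted p = 0.00015), the lowest adjusted p of the 43 genes. It was 1.33-fold lower in N1N2 plus Lrp6 than in control (log2 change -0.41, SE 0.07, adjusted p = 0.027, but 0.02 with the arrays scaled to each other) and did not pass between the antibody groups (0.16, adjusted p = 0.15).

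The Nid2 call in N1N2 held whichever array was left out, with adjusted p up to 0.00073, but with arrays scaled to each other it was lost (-0.13, adjusted p 0.85). Within slide 2 Nid2 differed by -0.66 between 2 arrays of each group, and with slide as a block its adjusted p was 0.052. Against control, the call in N1N2 plus Lrp6 was lost in 7 of 15 cases when 1 array was left out (adjusted p up to 0.075). The other nidogen, Nid1, read -5.37, -4.86, -4.88, -4.96 and -4.92 in controls, -5.32, -5.12, -5.47, -5.33 and -5.83 in N1N2 and -6.36, -5.30, -5.53, -5.65 and -5.64 in N1N2 plus Lrp6, where it was well above background on 3 of 5 arrays. Its changes were -0.41 in N1N2 (adjusted p = 0.14) and -0.70 in N1N2 plus Lrp6 against control (adjusted p = 0.11). A dimmer Nid1 probe changed by -0.02 in N1N2 against control and -0.03 in N1N2 plus Lrp6 against N1N2. That probe was well above background on 3 control, 4 N1N2 and 1 N1N2 plus Lrp6 arrays.

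Among the laminin chain genes Lamc1 fell when the Lrp6 antibody was added. Lamc1 codes for the gamma chain shared by most laminin trimers. Lamc1 read -2.98, -2.98, -2.79, -3.26 and -3.04 in controls, -2.76, -2.79, -2.62, -2.83 and -2.89 in N1N2 and -3.62, -3.06, -3.22, -3.51 and -3.15 in N1N2 plus Lrp6. The N1N2 arrays all lay above the N1N2 plus Lrp6 arrays, and Lamc1 fell 1.45-fold between them (log2 change -0.53, SE 0.11, adjusted p = 0.0052, at most 0.017 with any array left out). Lama2, the alpha chain typical of muscle basement membranes, read -1.16, -1.51, -1.54, -1.09 and -1.47 in controls, -1.10, -1.78, -1.63, -1.74 and -1.64 in N1N2 and -1.64, -1.21, -1.50, -1.34 and -1.58 in N1N2 plus Lrp6. These groups overlapped, and its changes of -0.23 and 0.12 did not pass (adjusted p = 0.31 and 0.62). Lamb1, the matching beta chain, was -0.48 in N1N2 plus Lrp6 against control, with no overlap between the groups but an adjusted p of 0.2.

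Type IV collagen, the sheet-forming collagen of all basement membranes, passed in no comparison. Col4a1 read -3.48, -3.41, -3.38, -3.34 and -3.42 in controls, -3.33, -3.76, -3.49, -3.63 and -3.66 in N1N2 and -3.58, -3.16, -3.71, -3.64 and -3.61 in N1N2 plus Lrp6, and was well above background on 5, 5 and 1 arrays of these groups. Its changes were -0.17 in N1N2 and 0.03 in N1N2 plus Lrp6 against N1N2. Col4a2, its partner in the trimer, gave 0.10 and -0.18. The genes lie head to head on chromosome 8 with annotated starts 21 bases apart (GRCm38.p6), Col4a1 on the minus and Col4a2 on the plus strand. The vessel-associated collagens Col15a1 and Col18a1 and the endothelial laminin chain Lama4 had changes between -0.25 and 0.11 in the first and second comparisons. In N1N2 plus Lrp6 against control their changes ran from -0.28 for Col18a1 to 0.11 for Lama4, and none passed. A dimmer Col18a1 probe, well above background on all arrays, changed by -0.28 in the first comparison and -0.39 in the second.

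Of the 7 smooth muscle genes tested, 3 fell in N1N2 plus Lrp6 against N1N2, where 7.26% of all features fell. In N1N2 plus Lrp6 against control 1 fell, beside 0.155% of all features. In N1N2 against control 0 passed in limma, with 1 at an unadjusted p under 0.05, and 6 of 7 lay below 0 with a median of -0.37, beside a median of -0.46 in N1N2 plus Lrp6 against N1N2. Whether these steps differ was not tested. Actg2 codes for enteric smooth muscle actin, the actin of the gut's muscle layers. Actg2 read -1.60, -0.76, -0.79, -1.12 and -1.48 in controls, -1.49, -1.73, -1.77, -1.83 and -1.67 in N1N2 and -3.96, -2.27, -2.24, -2.17 and -2.32 in N1N2 plus Lrp6. All N1N2 plus Lrp6 arrays lay below all other arrays, and array 1 lay far below the rest of its group. Actg2 fell 1.86-fold against N1N2 (log2 change -0.90, SE 0.28, adjusted p = 0.041) and 2.72-fold against control (log2 change -1.44, SE 0.28, adjusted p = 0.043).

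Acta2 codes for the smooth muscle actin of vessels, pericytes and myofibroblasts. It read -2.85, -2.97, -2.49, -3.11 and -3.25 in controls, -2.44, -2.62, -2.63, -2.62 and -2.74 in N1N2 and -4.18, -2.87, -3.38, -3.53 and -3.12 in N1N2 plus Lrp6. The N1N2 arrays all lay above controls 1, 2, 4 and 5 and above every N1N2 plus Lrp6 array. Acta2 fell 1.75-fold in N1N2 plus Lrp6 against N1N2 (log2 change -0.81, SE 0.19, adjusted p = 0.011), and it was 0.33 in N1N2 against control, which did not pass (adjusted p = 0.31).

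The 250 bases before the annotated start of Acta2 are shown because they hold letters close to the CArG box, the element that serum response factor binds in many smooth muscle genes (CC and GG around a run of A and T, here with at most 1 G or C inside the run, searched on both strands). They lie at chr19:34255374-34255623 (GRCm38.p6, minus strand, from RefSeq), and capitals mark the matches.
Acta2: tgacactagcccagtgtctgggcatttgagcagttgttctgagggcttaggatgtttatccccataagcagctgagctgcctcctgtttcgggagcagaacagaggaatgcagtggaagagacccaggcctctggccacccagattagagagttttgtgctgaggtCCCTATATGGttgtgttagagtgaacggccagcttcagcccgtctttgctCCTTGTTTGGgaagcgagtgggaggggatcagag
The matches CCCTATATGG and CCTTGTTTGG lie 84 to 75 and 34 to 25 bases before the start. Such a match was in 7 of 32 upstream windows of the listed genes, in 1 of 5 windows of muscle genes and in 8.59% of 32851 windows of all genes. An exact CArG box was in 0 of the 5 muscle windows and in 1.47% of all windows.

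Myh11, the smooth muscle myosin heavy chain, read 0.34, 0.95, 0.86, 0.92 and 0.46 in controls, 0.52, 0.90, 0.65, 0.98 and 0.46 in N1N2 and 0.10, 0.24, 0.41, 0.15 and 0.41 in N1N2 plus Lrp6, where it was well above background on 3 of 5 arrays. The N1N2 and N1N2 plus Lrp6 arrays did not overlap, and Myh11 fell 1.36-fold between them (log2 change -0.44, SE 0.14, adjusted p = 0.036). Tagln, which codes for the actin-binding protein transgelin, read -2.94, -2.77, -2.33, -2.87 and -3.22 in controls, -3.07, -3.39, -3.35, -3.15 and -3.18 in N1N2 and -4.56, -3.39, -3.50, -3.47 and -3.50 in N1N2 plus Lrp6. Its change of -0.86 in N1N2 plus Lrp6 against control separated the groups but did not pass (adjusted p = 0.08).

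Desmin, coded by Des, is the intermediate filament of muscle cells. Des read -2.12, -1.66, -1.46, -1.64 and -1.89 in controls, -2.09, -2.19, -2.01, -2.08 and -2.24 in N1N2 and -2.66, -2.09, -2.31, -2.21 and -2.32 in N1N2 plus Lrp6, with 3 of these last 5 well above background. Its changes against control of -0.37 in N1N2 and -0.56 in N1N2 plus Lrp6 came close to the threshold (adjusted p = 0.06 and 0.062). Cnn1, the contractile regulator calponin, was -0.84 in N1N2 plus Lrp6 against N1N2 and -1.45 against control, without overlap and without passing (adjusted p = 0.13 and 0.1). Its lowest array, N1N2 plus Lrp6 array 1, read -2.82 where the other 4 lay between -0.67 and -0.45. Mylk, the myosin light chain kinase, was flat at -0.05, 0.08 and 0.02 in the 3 comparisons.

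Among the muscle calls, Acta2 in N1N2 plus Lrp6 against N1N2 held whichever array was left out (adjusted p up to 0.03). Actg2 was lost there without control 4 (0.052) or any N1N2 array (0.063 to 0.077), and its change shrank to -0.56 without N1N2 plus Lrp6 array 1. Myh11 was lost without N1N2 arrays 2, 3 or 4 or N1N2 plus Lrp6 arrays 1, 2 or 4 (up to 0.1), and Actg2 against control in 11 of 15 cases (up to 0.13).

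The changes of the endothelial genes spanned the narrowest range of the 5 classes in N1N2 against control and in N1N2 plus Lrp6 against control. In N1N2 plus Lrp6 against N1N2 they ran from -0.23 to 0.07. The mesenchymal genes spanned less there with Pdgfra left out, from -0.38 to -0.31. Pecam1, the adhesion molecule of endothelial junctions, read 0.08, 0.21, 0.36, 0.19 and 0.16 in controls, 0.33, 0.55, 0.52, 0.40 and 0.38 in N1N2 and 0.10, 0.34, 0.06, 0.22 and 0.28 in N1N2 plus Lrp6. Pecam1 fell 1.17-fold in N1N2 plus Lrp6 against N1N2 (log2 change -0.23, SE 0.08, adjusted p = 0.047), with overlapping groups, after 0.23 in N1N2 against control (adjusted p = 0.056). Leaving out 1 array ended this call in 10 of 15 cases, with adjusted p up to 0.12, and N1N2 plus Lrp6 differed from control by 0.00.

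Cdh5, the cadherin of endothelial junctions, read 0.15, 0.12, 0.39, 0.23 and 0.09 in controls, 0.17, 0.17, 0.17, -0.07 and 0.14 in N1N2 and -0.02, 0.04, 0.21, 0.40 and 0.31 in N1N2 plus Lrp6, and was well above background on 5, 4 and 1 arrays. Kdr, the main receptor for vascular endothelial growth factor, read 0.46, 0.43, 0.85, 0.22 and 0.41 in controls, 0.64, 0.49, 0.65, 0.54 and 0.87 in N1N2 and 0.30, 0.99, 0.58, 0.40 and 0.44 in N1N2 plus Lrp6. Eng, coding for endoglin, a co-receptor for TGF-beta family ligands on vessels, read -1.53, -1.64, -1.65, -1.60 and -1.76 in controls, -1.49, -1.65, -1.84, -1.57 and -1.62 in N1N2 and -1.57, -1.49, -1.68, -1.49 and -1.67 in N1N2 plus Lrp6. The groups overlapped for each of these 3 genes, and none of their changes, between -0.10 and 0.16 in the first and second comparisons, passed the test.

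Array by array the classes ranked the controls alike only in part. Control 4 was the lowest control for 10 of 18 matrix genes and control 1 for 6, whereas among the 7 muscle genes control 1 was the lowest for 4, control 5 for 3 and control 4 for 0. Control 5, high for Dcn, Lum and Col14a1, had the lowest muscle mean of the controls, at -1.27, and control 4, low for those matrix genes, had a muscle mean of -0.91. Controls 1 to 3 shared a slide, as did controls 4 and 5. Control 3 was the highest control for 10 of 18 matrix genes, 4 of 7 muscle genes and 3 of 4 endothelial genes. Control 1 was low in both the matrix mean (-3.49) and the muscle mean (-1.21).

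Detection also differed between the groups. Of the 43 genes, 42 were well above background on all 5 control arrays, 40 on all 5 N1N2 arrays and 26 on all 5 N1N2 plus Lrp6 arrays. In that last group 35 genes would have met the filter on their own, while Postn, Col4a1, Col15a1, Nid1, Myh11, Des and Cdh5 met it through both other groups and Pdgfra through controls only. The part of this lower detection in the N1N2 plus Lrp6 results was not tested.

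The counts moved with single arrays and with the normalization. With arrays centred on their median in place of loess they were 6, 3 and 1, and with arrays scaled to each other 0, 0 and 0. In N1N2 against control the count of 5 was 0 with slide as a block, where 0.455% of all features were called in place of 11.7%. It was 1 without control 2 or control 5, where the share of all features was 6.46% and 6.49%. It was 2 and 3 without N1N2 array 4 or 5 (6.68% and 9.5%), and 8 without control 1 or N1N2 plus Lrp6 array 2 (8.2% and 14.2%). It was 13 without N1N2 plus Lrp6 array 1 (16.3%), which enters only through the shared spread. The count of 10 in N1N2 plus Lrp6 against N1N2 was 5 without N1N2 array 2 or N1N2 plus Lrp6 array 4. There the share of all features called also fell, from 16.7% to 11.4% and 11.7%. The median change in this comparison was -0.12 without N1N2 plus Lrp6 array 1. The count of 5 in N1N2 plus Lrp6 against control was 0 without control 2, 3 or 5 or without N1N2 plus Lrp6 array 2, 3 or 4, 1 without N1N2 array 3 or 4, 2 without control 4, 3 without N1N2 array 2, 8 without N1N2 plus Lrp6 array 5 and 10 without control 1, and the median was -0.29 without N1N2 plus Lrp6 array 1. This count was also 0 with flagged spots kept, where the share of all features called went from 0.376% to 0.201%, or with only the groups compared. No such share is given for the arrays left out in N1N2 plus Lrp6 against control. The moves of that count are therefore not read as a result about these genes.

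Further markers of these cell types, none of them among the 48 genes, were counted from separate lists. Of 12 listed fibroblast and pericyte genes 10 were tested, and Gsn, an actin-severing protein, rose in N1N2 (0.88, SE 0.25, adjusted p = 0.034) and fell in N1N2 plus Lrp6 against N1N2 (-0.88, SE 0.25, adjusted p = 0.025). Of 12 smooth muscle genes 7 were tested. Csrp1, a LIM protein of muscle, rose in N1N2 (0.54, adjusted p = 0.0095), and Csrp1 (-0.54, adjusted p = 0.0073), the actin cross-linker Flna (-0.83, adjusted p = 0.017) and the tropomyosin Tpm2 (-0.46, adjusted p = 0.049) fell in N1N2 plus Lrp6 against N1N2. Tpm2 was also lower in N1N2 plus Lrp6 than in control (-0.89, adjusted p = 0.022). The rises and falls of Gsn and Csrp1 share the N1N2 arrays. The mean log2 ratio of the muscle list was -1.34 to -0.96 on the control arrays, -1.29 to -1.02 in N1N2 and -1.65 to -1.14 in N1N2 plus Lrp6.

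Of 12 vessel and lymphatic genes 7 were tested and 0 passed in any comparison, with 0, 2 and 0 at an unadjusted p under 0.05 in limma. Of 8 nerve and glia genes 6 were tested and 0 passed, with 1 at an unadjusted p under 0.05 in each comparison. Their mean log2 ratios ran over the arrays from -0.47 to -0.05 in controls, -0.25 to 0.18 in N1N2 and -0.58 to 0.26 in N1N2 plus Lrp6. Among 9 immune genes tested, Cd3e of T cells (-0.64, adjusted p = 0.036) and the granzyme gene Gzma (-0.77, adjusted p = 0.0047) fell in N1N2 against control. The mean of the immune list was 1.46 to 1.95 on the control arrays, 1.04 to 1.54 in N1N2 and 1.14 to 1.48 in N1N2 plus Lrp6, so it too was lower on average in the treated groups, and its part in the stromal results was not tested. Of the 12 epithelial genes only Krt18 passed, rising in N1N2 (0.83, adjusted p = 9e-05) and falling when the Lrp6 antibody was added (-0.58, adjusted p = 0.0019). The median change of the 12 was 0.17 in N1N2 against control, with 2 below 0, and -0.16 in N1N2 plus Lrp6 against N1N2, with 9 below 0, with 4 genes at an unadjusted p under 0.05 in each. The part of this list in the stromal results was not tested.

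Genes that make, cross-link and degrade matrix were a separate list of 22, of which 21 were tested. In N1N2 against control Adamts2, the protease that trims fibrillar procollagen, fell (-1.05, SE 0.27, adjusted p = 0.022). In the same comparison the membrane metalloproteinase Mmp14 (0.54, SE 0.12, adjusted p = 0.0078) and the fibroblast activation protease Fap (0.84, SE 0.16, adjusted p = 0.0036) rose. When the Lrp6 antibody was added, Mmp14 fell (-0.35, adjusted p = 0.049) and the lysyl oxidase Loxl2, which cross-links collagen, rose (0.33, adjusted p = 0.047). None of the 21 passed in N1N2 plus Lrp6 against control, where 8 had an unadjusted p under 0.05 in limma. The medians of the list were 0.00, -0.27 and -0.14 in the 3 comparisons, against 0.00, 0.00 and 0.01 over all features.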

How the data were processed

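Crypt RNA was labelled with Cy5 and hybridised against a Cy3-labelled common mouse reference on 2-colour Agilent arrays without dye swaps, per the labels' protocols. The scanner files that the authors deposited hold median spot and background intensity values and a log10 ratio by Feature Extraction 11.0.1.1, per the file headers. The authors' deposited table of log2 values (R 3.0.0 and limma 3.6.7, per the submitters' processing notes) correlated with the log2 ratios computed here at r of at least 0.99998 on every array and served as an alternative.

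Calculations used R 4.3.3 with limma 3.58.1. Flagged spots, 306 to 642 of 44397 per array, were left out, background was corrected by normexp (offset 50) and ratios were normalized by loess within arrays. Median intensities were used because the files hold no mean intensities. Probes had to exceed background clearly in the red channel on 4 or more of the 5 arrays of some group, and a gene was represented by its brightest probe. This left 23938 features, 373 of them without a value on at least 1 array and none of these among the genes described. The 3 groups were compared in 1 fit of 15 arrays (lmFit and eBayes, two-sided, Benjamini-Hochberg over all features, threshold 0.05), which was tested on simulated data. The number of arrays limits the precision.

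The genes and lists were chosen with earlier results of these data known, so lists carry no p-value. All listed genes may be named. Printed array by array are those past the threshold in at least 1 comparison and the defining genes of each class, and the rest are given by range and counts. Alternatives were other background and normalization settings, filters, probe choices, slide and replicate blocks, only the groups compared, and leaving out each array. Gene names came from accessions in a RefSeq table of GRCm38.p6. Promoters are that table's, searched over 250 bases before the start.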

Additional observations from a re-analysis of the deposited data

Results flagged for a closer look

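For 90 sets of 5 arrays (each gene printed array by array, each class mean and the mean of all 43 genes, in each group), the gap between the most extreme array and its neighbour was set against the range of the set. In 10 sets it took up more than 0.71 of the range, which chance alone gives in about 1 in 20 independent sets. These sets share genes and arrays, so the 10 cannot be set against that rate. On N1N2 plus Lrp6 array 1 the mean of the muscle genes (-2.46) and of all 43 genes (-3.36) stood apart on the low side, as did Actg2 (-3.96, against -2.32 on the next array), Tagln (-4.56, against -3.50) and Fstl1 (-7.09, against -6.32). That array also had the lowest share of spots well above background, 57.2%, and the part of this in its values was not tested. Col4a1 on N1N2 plus Lrp6 array 2 was high at -3.16. In controls, array 3 was high for the endothelial mean (-0.013) and array 1 low for Nid1 (-5.37). In N1N2, array 4 was low for Cdh5 (-0.070) and array 1 high for Lama2 (-1.10).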

How the results depend on the processing

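Of 521 values of single genes recomputed under the alternatives, 367 kept direction and call, 150 kept direction but lost the call and 4 changed direction. All 4 changed with the arrays scaled to each other, which divided each array by its median log2 ratio, a value near 0. The median absolute log2 ratio, 0.27 to 0.36 per array, was not the divisor. Fstl1 turned to 0.56 in N1N2 against control. In N1N2 plus Lrp6 against control Col1a1 turned to 0.12, Fstl1 to 0.29 and Nid2 to 0.024. The cause was not tested. The same scaling turned the median change to 0.25 and 0.14 in those comparisons.

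Counts of genes past the threshold in N1N2 against control (5) became 0 with scaling, 0 with slide as a block, 11 with slide as a random block (correlation -0.18) and 11 with only the groups compared in the fit, where the share of all features called went from 11.7% to 2.86%, 0.455%, 17.2% and 17.1%. In N1N2 plus Lrp6 against N1N2 (10) they became 3 with median centring, 0 with scaling and 18 with the random block, where the share of all features went from 16.7% to 14.3%, 2.37% and 29.4%. In N1N2 plus Lrp6 against control (5) they became 1 with median centring, 0 with scaling, 3 without the filter, 0 with flagged spots kept, 26 with the random block, 3 with the replicate block and 0 with only the groups compared. For this comparison the share of all features called was 0.376% in the main fit, at 0.155% lower and 0.221% higher. It was 0.125% with median centring, 0.00418% with scaling, 0.191% without the filter and 0.201% with flagged spots kept. No share is given for its other settings. The moves of the count in this comparison are therefore not read as a result about these genes. Leaving out 1 array at a time gave 1 to 13, 5 to 11 and 0 to 10 genes, with medians of -0.18 to -0.12, -0.27 to -0.12 and -0.52 to -0.29. In N1N2 against control, 6.46% of all features were called where 1 gene was, without control 2, and 16.3% where 13 genes were. In N1N2 plus Lrp6 against N1N2, 11.4% were called without N1N2 array 2, where 5 genes were. Without N1N2 plus Lrp6 array 2, where 11 genes were called, the share was 19.8%.

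Class differences that moved by more than the spread between arrays were, for scaling, in N1N2 against control 0.36 (matrix), 0.79 (mesenchymal) and 0.38 (basement membrane), and in N1N2 plus Lrp6 against control -0.0010, 0.50 and 0.24. With the scanner's log ratio they were -1.03, -0.60 and -0.52 in N1N2 plus Lrp6 against control, and for basement membrane -0.19 in N1N2 against control and -0.34 in N1N2 plus Lrp6 against N1N2. With flagged spots kept they were -0.47 (mesenchymal) and -0.46 (basement membrane) in N1N2 plus Lrp6 against control and -0.22 (basement membrane) in N1N2 against control, where median centring gave -0.21.

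Over all features the share of calls that were higher was 56.1%, 56.5% and 58.9% in the 3 comparisons. It was 45.8% in the first and 77.2% in the second with median centring, 68.8% in the first and 100% in the third with scaling, and 38.7% in the third with the scanner's ratio. With flagged spots kept it was 70.5% in the first and 87.5% in the third. The numbers were not taken as pairs, since not every correlation of same-numbered arrays was over 0.1: 4 of 15 were (range -0.43 to 0.62), all 4 of them among the 5 between control and N1N2. The replicate block gave 7, 9 and 3 genes, the 7 beside 10.2% of all features. Genes not well above background, as on many N1N2 plus Lrp6 arrays, have less certain ratios.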
